A study of Mus musculus with 4 samples.

Results

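Frizzled genes encode the receptors through which cells sense Wnt proteins. The mouse genome holds 10 of them, Fzd1 to Fzd10, and all 10 are described here, chosen as a family by name and kept whether or not expressed, out of 55401 genes listed in each table. The family was picked because Fzd5 was much lower in Dor cKO than in Dor WT, so every difference between those groups that is given for a Frizzled gene below is a description. How many members passed a threshold is given once, beside the share for all genes, and supports nothing here. RNA came from mouse optic nerves and was read in 4 libraries, 2 of Dor WT and 2 of Dor cKO genotype. Dor is a synonym of Trp53inp2, a gene for a nuclear and autophagy-associated protein, and cKO is taken here as a conditional knockout. Strain, sex, age, the Cre driver and the number of animals per library are not given in the sources used here, nor is it stated that libraries of a group came from separate animals, so the p-values below measure only the spread between these libraries, which may be technical. The names of the Dor WT tables hold a tag that may denote an age, which is absent from the names for Dor cKO, so a difference in age or batch and the genotype cannot be told apart.

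A Wnt protein is held by the cysteine-rich domain outside the cell, and the receptor's membrane-spanning segments pass the signal to Dishevelled proteins inside. With the co-receptors Lrp5 or Lrp6, Frizzled proteins stop the destruction of beta-catenin, which then acts with Tcf and Lef factors on target genes. Without those co-receptors they steer planar cell polarity and axon growth. In white matter, Wnt signalling is known for its part in the timing of oligodendrocyte differentiation and in the building of vessels and their barrier.

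Total expected counts ran from 17263830 to 21595832 per library. Trp53inp2 had 138 and 133 CPM (counts scaled to library size) in Dor WT against 105 and 107 CPM in Dor cKO, a log2 difference of -0.36 (SE 0.04, edgeR adjusted p = 2.74e-08). That call was lost with limma on log2(TPM + 1) (adjusted p = 0.078) and at a fixed coefficient of variation of 0.1 (adjusted p = 0.111). A loss from single exons, or from a small share of cells, could leave such gene totals little changed. A partial fall cannot be told apart from a change in the mix of cells, so the totals are no check of the genotype. The optic nerve label was checked against marker lists: genes of oligodendrocytes and myelin summed to 18325.7 to 32678 CPM and astrocyte genes to 14650.7 to 16143.2 CPM over the 4 libraries, while 12 genes of retina and pigment epithelium summed to 49.2 to 55.5 CPM. Pituitary genes were present in Dor WT at 36.3 and 41.0 CPM, a point returned to beside Fzd5.

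The family shares a compact gene structure. In GENCODE M21 the coding sequence lay in 1 exon in 7 of the 10 genes, in 2 exons in Fzd4 and in 6 exons in Fzd3 and Fzd6, and its length ran from 1614 bases in Fzd4 to 2130 bases in Fzd6. Fzd5 lies on GRCm38 chromosome 1, 64730558 to 64737751, on the minus strand, and Fzd7 on the same chromosome at 59482424 to 59486955. Fzd1 lies on chromosome 5, 4753839 to 4758035. Upstream sequences of 250 bases are shown for these 3 genes because Fzd5 was the member with the largest difference between the groups and Fzd1 and Fzd7 were 2 of the most abundant members, which moved the other way. They come from the RefSeq promoter table (GRCm38.p6), from which entries for 6 of the 10 genes were used, and are written 5′ to 3′ on the gene's strand. No entry was used for Fzd2, Fzd3, Fzd6 or Fzd8, and Fzd8 was left out in advance, whether or not the table held it. Capitals mark matches to the GC box GGGCGG or the CCAAT box CCAAT on either strand, where neighbouring matches may overlap.
Fzd5 upstream, chr1:64737751-64738000, minus strand: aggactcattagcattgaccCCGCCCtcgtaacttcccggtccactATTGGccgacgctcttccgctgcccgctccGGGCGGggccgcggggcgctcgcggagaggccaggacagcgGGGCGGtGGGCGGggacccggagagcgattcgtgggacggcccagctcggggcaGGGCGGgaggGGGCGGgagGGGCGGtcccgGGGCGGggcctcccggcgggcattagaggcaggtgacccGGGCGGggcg
Fzd7 upstream, chr1:59481897-59482146, plus strand: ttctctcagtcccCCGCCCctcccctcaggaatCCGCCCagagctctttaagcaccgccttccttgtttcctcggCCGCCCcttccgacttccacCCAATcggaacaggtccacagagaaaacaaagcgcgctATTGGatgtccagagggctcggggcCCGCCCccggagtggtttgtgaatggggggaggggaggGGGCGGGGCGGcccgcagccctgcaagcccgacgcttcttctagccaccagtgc
Fzd1 upstream, chr5:4758217-4758466, minus strand: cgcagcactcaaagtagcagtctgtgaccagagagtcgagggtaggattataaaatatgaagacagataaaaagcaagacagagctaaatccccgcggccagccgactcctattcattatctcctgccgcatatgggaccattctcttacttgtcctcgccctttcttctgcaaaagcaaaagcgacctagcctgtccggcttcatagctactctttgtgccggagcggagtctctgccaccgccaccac

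The Fzd5 window held 9 GC box matches and 1 CCAAT match, the Fzd7 window 6 and 2, and the Fzd1 window 0 and 0. Of 32536 distinct promoter windows of the same length in the table, 33.0% held a GC box and 33.8% a CCAAT match. The Tcf and Lef motif CTTTGAT, searched on both strands, was in none of the 3 windows and in 3.21% of all windows. GC content was 76.4% in the Fzd5 window, 65.2% in the Fzd7 window and 51.2% in the Fzd1 window, against a median of 52.4% over all windows. The Fzd5 window held 32 CpG dinucleotides, more than 95.4% of all windows, where the median was 6.0. A high GC content and a high number of CpG dinucleotides were not particular to Fzd5. The windows of Fzd9 and Fzd10, which were higher in Dor cKO, also had 76.4% GC and held 42 and 37 CpG dinucleotides. Each held 1 GC box match and no CCAAT match. By GENCODE M21 positions the Fzd10 window (128600856 to 128601105, plus strand) lay inside the gene, which begins at 128600844. The Fzd9 window (135251048 to 135251297, minus strand) lay partly inside its gene, whose highest position is 135251230. The Fzd4 window had 72.8% GC, 25 CpG dinucleotides, 7 GC box matches and 1 CCAAT match. Each match is a description of letters in the sequence.

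All 10 Frizzled genes had counts above 0 in every library and all passed the low-count filter, so none was left out. Levels are compared between genes in TPM, a share of all transcripts that allows for gene length. In Dor WT the highest level was that of Fzd1 at 48.1 ± 0.672 TPM (SD, n = 2), followed by Fzd2 at 44.0 ± 1.63 TPM and Fzd7 at 40.7 ± 0.933 TPM. These 3 close relatives held 56.9% and 57.8% of the family's summed TPM in the Dor WT libraries. Below them came Fzd6 (22.1 and 25.4 TPM), Fzd3 (20.7 TPM in both libraries), Fzd9 (17.55 and 19.98 TPM), Fzd5 (10.99 and 12.04 TPM), Fzd10 (11.2 and 11.8 TPM), Fzd4 (7.53 and 7.55 TPM) and Fzd8 (5.08 and 5.30 TPM). Along that order the ranges of neighbours did not overlap between the 2 Dor WT libraries, except for Fzd5 and Fzd10. In Dor cKO the first 3 places were the same, Fzd9 stood above Fzd6 (26.3 and 27.0 against 25.7 and 25.2 TPM), and Fzd5 had moved from place 7 to the last place at 3.41 ± 0.0849 TPM.

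**Figure D1:**
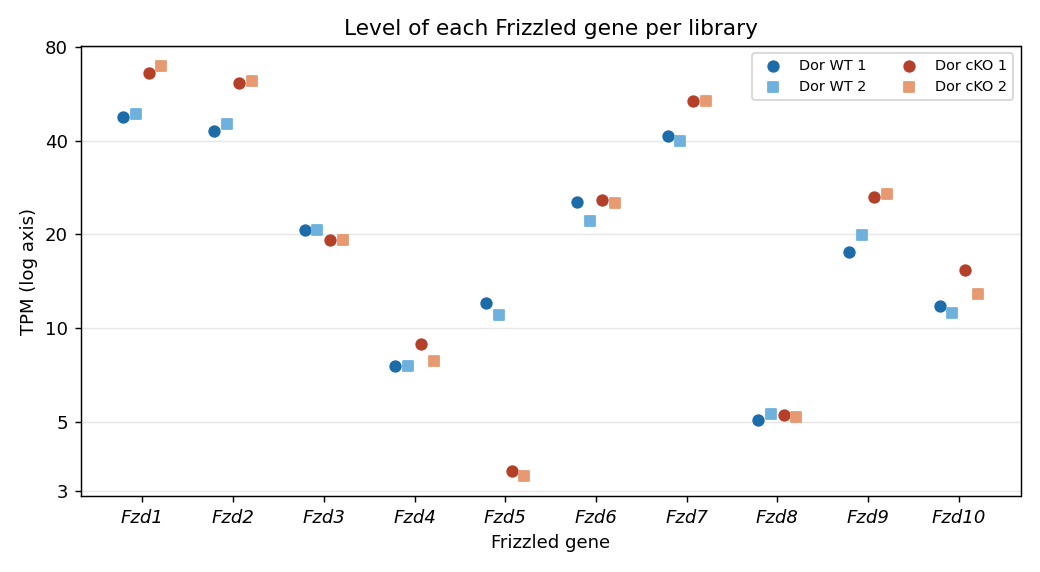
TPM of each Frizzled gene (y axis, logarithmic) in each of the 4 libraries, with points in blue shades for Dor WT and in red and orange for Dor cKO. Fzd5 is the member whose Dor cKO points (3.35 and 3.47 TPM) lie far below its Dor WT points (10.99 and 12.04 TPM), while Fzd1, Fzd2, Fzd7 and Fzd9 are higher in both Dor cKO libraries.

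Summed over the family, TPM was 232.0 and 231.6 in Dor WT against 285.6 and 285.8 in Dor cKO, a ratio of 1.23. The libraries of each group lay close together. The groups did not overlap, which in CPM was also so for 60.8% of all tested genes. Fzd1, Fzd2 and Fzd7 together went from 131.9 and 133.8 TPM to 181.5 and 185.2 TPM, or to 63.5% and 64.8% of the family. Fzd3 and Fzd6, the pair known for cell polarity, stayed between 42.8 and 46.1 TPM in the 4 libraries and overlapped between groups. Fzd5 and Fzd8, which are each other's closest relatives, went from 17.1 and 16.3 TPM to 8.73 and 8.51 TPM, while Fzd8 stayed between 5.08 and 5.30 TPM, and their share went from 7.38% and 7.03% to 3.06% and 2.98%. In Dor WT Fzd5 was the higher of the pair and in Dor cKO Fzd8 was: the TPM of Fzd8 minus that of Fzd5 was -6.96 and -5.69 in the former group and 1.79 and 1.81 in the latter.

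**Figure D2:**
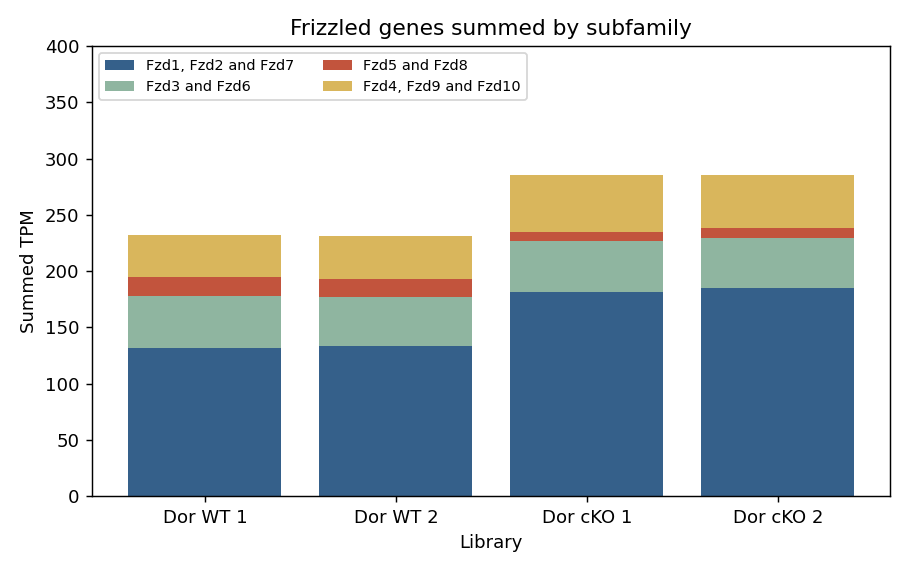
Summed TPM of the Frizzled genes (y axis, from 0) in each library, stacked by subfamily. The total is 232.0 and 231.6 TPM in Dor WT and 285.6 and 285.8 TPM in Dor cKO, with a taller block for Fzd1, Fzd2 and Fzd7 and a thinner one for Fzd5 and Fzd8.

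Differences between groups are given from CPM after TMM scaling, as log2 values of Dor cKO minus Dor WT with their standard error (SE). Over all 16751 genes tested, 27.7% differed, 14.3% being higher and 13.4% lower, in Dor cKO at an edgeR adjusted p under 0.05, and 60.8% had groups that did not overlap in CPM, 30.2% of them higher and 30.5% lower out of all tested. Of the 10 Frizzled genes, 6 passed the same threshold on the higher side and 2 on the lower side. In 7 members both Dor cKO libraries lay above both Dor WT libraries, in Fzd3 and Fzd5 below, and in Fzd8 the groups overlapped. The median difference of the 10 was 0.29, against -0.00 for all tested genes. Because the family was chosen on this contrast, nothing is read from these counts.

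**Figure D3:**
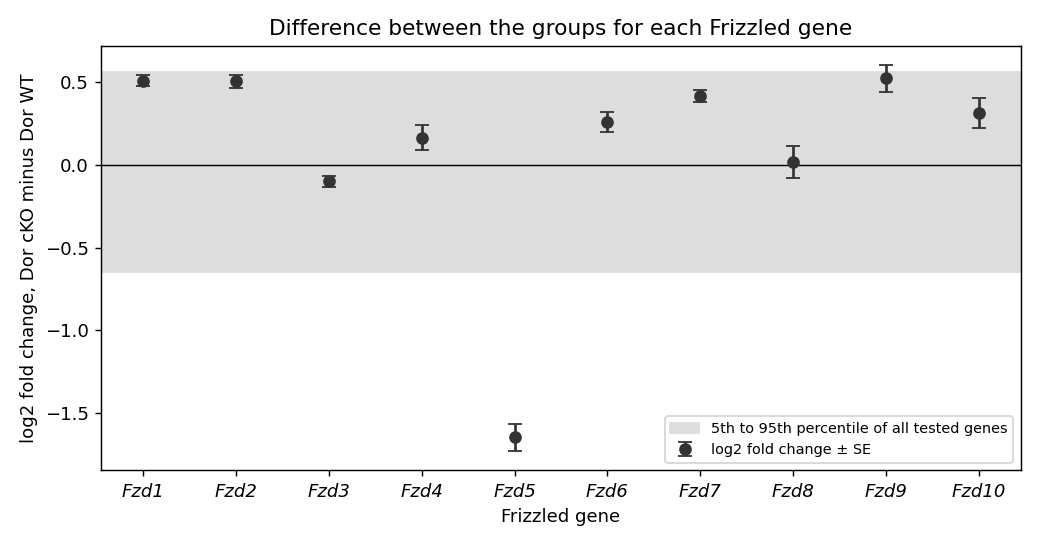
log2 fold change of each Frizzled gene (y axis, Dor cKO minus Dor WT) with its SE as bars, and the 5th to 95th percentile of all tested genes as a grey band, from -0.65 to 0.56. Fzd5 lies at -1.65, below the band, and the other 9 lie inside it between -0.10 and 0.52.

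Fzd5, a receptor needed for eye and vessel development in the embryo, had 48.8 and 46.6 CPM in Dor WT against 15.51 and 14.96 CPM in Dor cKO. Both Dor cKO libraries were low and both Dor WT libraries high, with a wide gap between them. The difference was -1.65 (SE 0.08), 3.13-fold lower, and 0.537% of all tested genes had a lower value. It ran from -1.68 to -1.61 with each library left out in turn, and was -1.64 after removal of a trend on gene length and GC content and -1.50 with limma on log2(TPM + 1). Its counts were 848.6, 1014, 326.4 and 311.4 in Dor WT 1, Dor WT 2, Dor cKO 1 and Dor cKO 2. Fzd5 was the only member whose counts were not whole. The gene model Gm38058 overlaps its 5′ end on the opposite strand (chromosome 1, 64736240 to 64740607). It had 8.44, 8.19, 3.56 and 4.64 counts, too few to test, which gave whole numbers when added to those of Fzd5. Whether the counting used strand is not given, so it is not known whether the Fzd5 counts hold reads from the opposite strand. RSEM gave the Fzd5 counts a posterior SD of 0.93 to 1.41 reads, which covers the assignment of reads within a library and not the spread between libraries.

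Fzd5 has 2 annotated transcripts with the same coding sequence. The long one has 6915 bases, and the short one has 2895 bases, ends earlier and has a shorter first exon. RSEM's length of a gene is the mean over its transcripts weighted by their abundance, so for a gene with 2 transcripts it gives the share of each. For Fzd5 that length was 6138.74 and 6424.69 bases in Dor WT and 6695.36 and 6688.28 bases in Dor cKO. The annotation that RSEM used is not given, so the split assumes that it held these 2 transcripts at their GENCODE M21 lengths. On that assumption, the short transcript made up 19.3% and 12.2% of Fzd5 molecules in Dor WT against 5.46% and 5.64% in Dor cKO. The groups did not overlap, but the Dor WT libraries stood further from each other than the Dor cKO libraries. On the same assumption, the long transcript went in TPM from 9.72 and 9.65 to 3.28 and 3.16, 3.01-fold lower. The short one went from 2.32 and 1.34 to 0.19 and 0.189, 9.66-fold lower by the means. With 2 libraries per group no exact test can reach 0.05, and none was run. The mean fragment length also differed between groups, at 259.6 and 260.0 bases in Dor WT and 245.5 and 245.3 bases in Dor cKO, and its part in the split between transcripts was not tested.

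**Figure D4:**
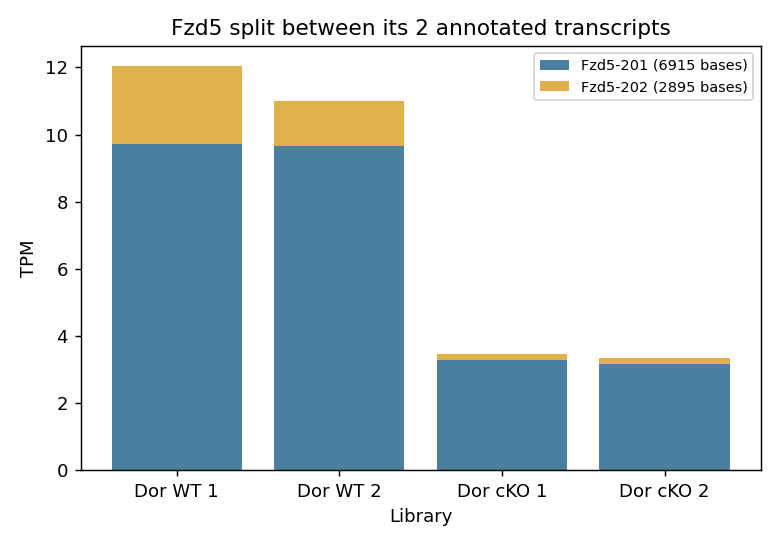
TPM of Fzd5 (y axis, from 0) in each library, split between its 2 annotated transcripts by the abundance-weighted length. The split assumes that RSEM used the GENCODE M21 transcript lengths. The long transcript is at 9.72 and 9.65 TPM in Dor WT and 3.28 and 3.16 TPM in Dor cKO, and the short one at 2.32 and 1.34 TPM against 0.19 and 0.189 TPM.

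Genes around Fzd5 were examined in a window of 250 kb to each side, which was chosen after the Fzd5 value was seen. The cyclin-like gene Ccnyl1, which lies next to Fzd5, had 63.7 and 68.7 CPM in Dor WT against 51.7 and 53.0 CPM in Dor cKO and fell by 0.34 (SE 0.06, edgeR adjusted p = 3.79e-05), a call lost with limma on log2(TPM + 1) (adjusted p = 0.176). Mettl21a, a methyltransferase gene, rose by 0.42 (SE 0.12, edgeR adjusted p = 0.00801), but its value was -0.36 with limma on log2(TPM + 1), and the call was lost without Dor cKO replicate 2 (edgeR adjusted p = 0.104). Creb1, a transcription factor gene, had a value of -0.09 (SE 0.06, edgeR adjusted p = 0.283), and Plekhm3, the next gene on the far side, -0.05 (SE 0.08, edgeR adjusted p = 0.716), or 0.32 with limma on log2(TPM + 1). A further tested neighbour, 2810408I11Rik, stayed under 1 CPM in every library and had a value of -0.625 (SE 0.656, edgeR adjusted p = 0.544). Fzd5 was chosen for its large fall, so nothing is read from how its difference compares in size with those of its neighbours.

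Among 5565 tested genes with a mean CPM within a factor of 2 of that of Fzd5, the 5 whose 4 centred log2 CPM values lay nearest to those of Fzd5 were Ermn (distance 0.164), Col25a1 (0.222), Mest (0.224), Neu4 (0.225) and Opalin (0.275). Ermn, a cytoskeletal gene, had 75.5 and 77.9 CPM in Dor WT against 25.7 and 27.2 CPM in Dor cKO. Col25a1, a membrane collagen gene, had 60.7 and 54.4 CPM against 18.9 and 21.5 CPM. The measure is a Euclidean distance over 4 libraries in 2 groups, so it mostly finds genes with a like difference between the groups.

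Marker lists moved with Fzd5. In bulk tissue, fewer cells of a type and less RNA per cell cannot be told apart. At the threshold used for the list counts, an edgeR adjusted p under 0.05, 14.3% of all tested genes were higher and 13.4% lower. All 17 genes of oligodendrocytes and myelin, among them Ermn and Opalin, were lower, and their sum went from 32678 and 32552 CPM (Dor WT) to 18410.8 and 18325.7 CPM (Dor cKO), a smaller proportional difference than that of Fzd5. Of 16 pituitary genes, 7 were tested and 6 were lower, and the list summed to 41.0 and 36.3 CPM in Dor WT against 4.19 and 3.80 CPM in Dor cKO, with 13 and 10 genes above 0 against 7 and 6. Among them Cga, a subunit of pituitary hormones, stood at 275 and 376 counts in the Dor WT libraries and at 0 in both of Dor cKO. Of 16 genes of ventral hypothalamus and tanycytes, including Col25a1, 14 were tested, 8 were lower and 0 higher, none was at 0 in all libraries, and the sum went from 244 and 255 CPM to 152 and 148 CPM. Most of that fall came from Col25a1 (mean 57.5 CPM in Dor WT against 20.2 CPM in Dor cKO) and Dio2 (64.3 against 29.0 CPM). Six3, Six6, Vax1, Lhx2, Crym and Sim1 of this list were not called. The optic nerve joins the brain beside both tissues. Of 8 genes of oligodendrocyte precursors, 1 was higher and 5 were lower, with sums of 1513.15 and 1486.01 CPM against 1358.57 and 1357.73 CPM. The part of each of these lists in the Fzd5 result was not tested.

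Fzd8, the closest relative of Fzd5 and known for binding of Wnt proteins in the forebrain, did not follow it. Fzd8 had 20.01 and 20.84 CPM in Dor WT against 20.9 and 20.5 CPM in Dor cKO. The groups overlapped, and the value was 0.02 (SE 0.10), or -0.0027 with total count scaling and -0.0100 without Dor WT replicate 1.

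Fzd1, Fzd2 and Fzd7 were higher in Dor cKO by like amounts. Fzd1 had 129 and 132 CPM in Dor WT against 181 and 190 CPM in Dor cKO, a difference of 0.51 (SE 0.04), 1.42-fold higher. Fzd2 (chromosome 11, 102604396 to 102608058) went from 101 and 106 to 146 and 147 CPM, 0.50 (SE 0.04). Fzd7 went from 122 and 118 to 160.0 and 159.7 CPM, 0.42 (SE 0.04). For each of these genes both Dor cKO libraries lay above both Dor WT libraries by more than the spread within either group. With each library left out in turn, the differences stayed between 0.47 and 0.54 for Fzd1, 0.47 and 0.54 for Fzd2, and 0.39 and 0.44 for Fzd7.

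Fzd4, Fzd9 and Fzd10 differed in how far their libraries agreed. Fzd9, a receptor known from hippocampus and bone, had 24.6 and 28.0 CPM in Dor WT against 37.4 and 38.4 CPM in Dor cKO, a difference of 0.52 (SE 0.08), 1.43-fold higher, and ran from 0.44 to 0.62 with libraries left out. Fzd10 had 24.3 and 23.0 CPM against 32.0 and 26.8 CPM, a difference of 0.31 (SE 0.09). Its Dor cKO libraries stood apart from each other: the difference was 0.44 without Dor cKO replicate 2 and 0.18 without Dor cKO replicate 1. Fzd4, the receptor for Norrin in retinal vessels, had 33.5 and 33.6 CPM in Dor WT against 39.9 and 35.2 CPM in Dor cKO. Its difference was 0.16 (SE 0.08), with values of 0.07 without Dor cKO replicate 1, 0.25 without Dor cKO replicate 2 and 0.24 after removal of the trend on length and GC content.

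Fzd3 and Fzd6, known for axon tract formation and for tissue polarity, had differences that depended on the processing. Fzd3 had 178.2 and 177.6 CPM in Dor WT against 166.1 and 165.8 CPM in Dor cKO, a difference of -0.10 (SE 0.03). It is the longest member, at 12730 bases with a GC content of 43.5%, the lowest of the family, and its difference turned to 0.07 when a trend on gene length and GC content was removed. Fzd6 had 49.7 and 48.8 CPM in Dor WT against 60.7 and 57.2 CPM in Dor cKO, a difference of 0.26 (SE 0.06). In TPM it had 25.4 and 22.1 against 25.7 and 25.2, where the groups overlapped, and limma on log2(TPM + 1) gave 0.10. Fzd6 has 5 annotated transcripts and its weighted length was 3102 and 3467 bases in Dor WT against 3645 and 3509 bases in Dor cKO, so its level per length depends on how RSEM split its reads.

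Fzd1, Fzd2, Fzd7 and Fzd9 were higher in tissue in which several marker lists of other cell types also differed. Of 13 genes of fibroblasts and meninges, 11 were higher and 1 lower, and their sum went from 11746.7 and 11777.8 CPM to 15143.5 and 15128.9 CPM. Of 12 astrocyte genes, 10 were higher and 1 lower, with sums of 14659.3 and 14650.7 CPM against 16111.3 and 16143.2 CPM. Of 9 mural cell genes, 2 were higher and 3 lower, with a median difference of -0.10, although the sum, most of it from Vtn, went from 718 and 744 CPM to 867 and 860.2 CPM. Of 12 endothelial genes, 4 were higher, 0 lower and 8 not called, with sums of 348 and 352 CPM against 394 and 404 CPM. Of 11 microglia genes, 5 were higher and 1 lower, with a median of -0.01 and sums of 757 and 759 CPM against 852 and 863 CPM. Of 11 neuronal genes, 0 were higher and 2 lower (18.2%), with sums of 243 and 242 CPM against 227 and 221 CPM. Of 6 tested Schwann cell genes, 1 was higher (16.7%) and 0 lower, with sums of 201 and 199 CPM against 235 CPM in both. Over all tested genes 14.3% were higher and 13.4% lower, so nothing is read from the neuronal and Schwann cell counts. No member of the lists in this paragraph was at 0 in any library. Their part in the Frizzled differences was not tested.

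The other genes of the pathway were read on 9 lists that hold 126 genes, some of them on more than 1 list. Of the 116 that were tested, 55 rose (47.4%) and 9 fell (7.76%) at an edgeR adjusted p under 0.05. Over all tested genes the shares were 14.3% and 13.4%, and the median was 0.16 on the lists against -0.00. Of the marker lists above, fibroblasts and meninges had 84.6% higher and 7.69% lower (median 0.34), and astrocytes 83.3% and 8.33% (median 0.20). Oligodendrocytes and myelin had 0% higher and 100% lower (median -0.99). The part of these cell types in the Wnt list counts was not tested. With limma on log2(TPM + 1) 16 rose and 1 fell, where 3.98% and 4.31% of all tested genes passed, and at a fixed coefficient of variation of 0.1, 12 rose and 5 fell, where 4.2% and 5.32% passed. Among the genes named below, Wnt6, Wnt11, Gpc3, Gpc6, Ror1, Adgra2, Lgr4, Wif1, Draxin, Igfbp4 and Prickle1 passed the limma test too, and the others did not. At the fixed coefficient of variation, Gpc3, Gpc6 and Lgr4 of these lost their call (adjusted p = 0.102, 0.104 and 0.0751), while Wnt3, Wnt8b, Notum, Rspo3 and Sostdc1 passed there though not with limma, and the remaining genes passed neither.

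**Figure D5:**
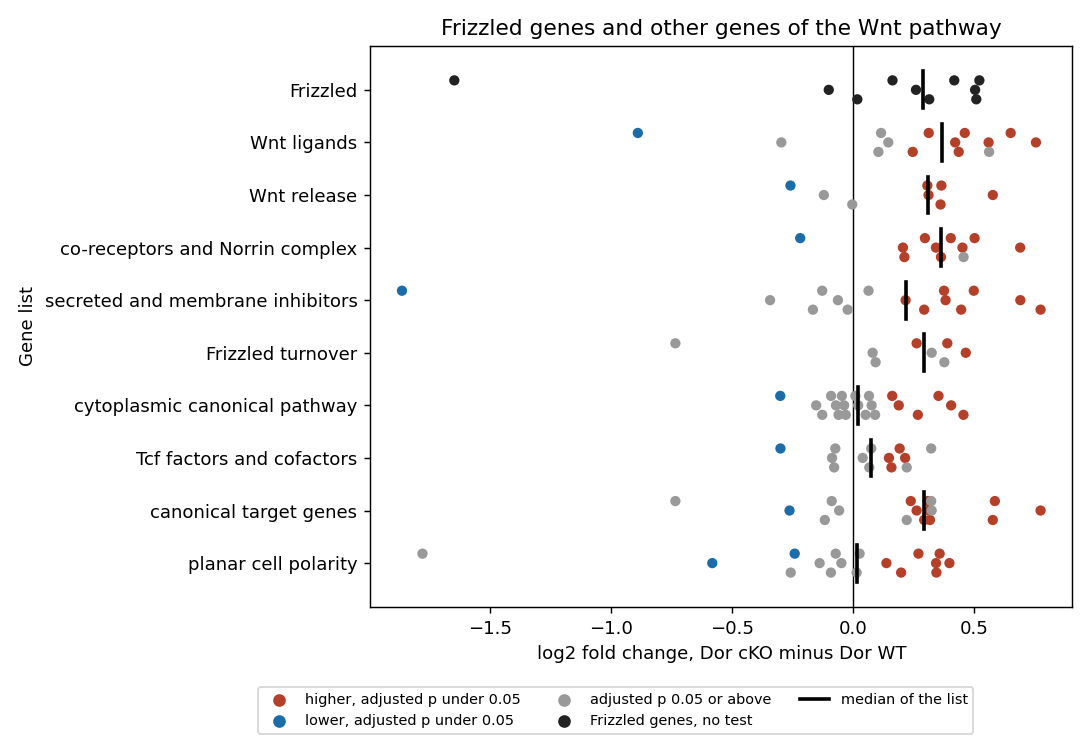
log2 fold change (x axis, Dor cKO minus Dor WT) of each tested gene on the Frizzled list and the 9 other lists of the pathway (y axis), with the median of each list as a black bar. Medians lie between 0.20 and 0.40 for ligands, release, co-receptors, inhibitors, turnover and target genes and between 0 and 0.10 for the cytoplasmic pathway, Tcf factors and planar cell polarity.

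Of the Wnt ligands, 14 of 19 were tested, 8 rose and 1 fell, with a median of 0.37. Wnt6 went from 84.3 and 83.1 CPM to 123.2 and 123.4 CPM and rose by 0.56 (SE 0.04, edgeR adjusted p = 1.31e-11), Wnt11, a ligand of the polarity branch, rose by 0.75 (SE 0.11) and Wnt8b by 0.65 (SE 0.16). Wnt3, a canonical ligand, had 9.03 and 9.48 CPM in Dor WT against 4.57 and 5.44 CPM in Dor cKO and fell by 0.89 (SE 0.17, edgeR adjusted p = 0.000147), the one ligand that moved with Fzd5. Of 8 release genes, 5 rose and 1 fell: Notum, which encodes a Wnt deacylase, rose by 0.58 (SE 0.14), the glypican genes Gpc6 and Gpc3 by 0.36 (SE 0.04) and 0.36 (SE 0.03), and Tmed5, a cargo receptor gene, fell by 0.26 (SE 0.07). The Notum call was lost without Dor WT replicate 2, at 0.37 (edgeR adjusted p = 0.0819).

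Counts for partners of Frizzled at the membrane stand beside 14.3% higher and 13.4% lower over all tested genes. Of 11 co-receptor and Norrin complex genes, 9 rose and 1 fell, with a median of 0.36. The co-receptor genes Lrp5 and Lrp6, singled out for their role after their values were seen, rose by 0.30 (SE 0.05) and 0.21 (SE 0.03). Ror1, a receptor for Wnt5 proteins, rose by 0.69 (SE 0.09, edgeR adjusted p = 4.34e-07), and Adgra2, which works with Reck in the sensing of Wnt7 by brain vessels, by 0.45 (SE 0.03). In the Norrin complex around Fzd4, the ligand gene Ndp rose by 0.50 (SE 0.16) and the co-activator gene Tspan12 fell by 0.22 (SE 0.07), but both calls were lost with DESeq2 (adjusted p = 0.0811 and 0.0827). The Ndp call was also lost without Dor WT replicate 2 (0.39), Dor cKO replicate 1 (0.52) or Dor cKO replicate 2 (0.49), and that of Tspan12 without Dor WT replicate 1 (-0.12), Dor cKO replicate 1 (-0.21) or Dor cKO replicate 2 (-0.23). Of 8 tested genes of Frizzled turnover, 3 rose and 0 fell: Rspo3 by 0.46 (SE 0.07), its receptor gene Lgr4 by 0.39 (SE 0.05), and Znrf3, a ligase that removes Frizzled proteins from the membrane, by 0.26 (SE 0.09). Znrf3 lost its call with DESeq2 (adjusted p = 0.0809), and likewise without Dor WT replicate 1 (0.25), Dor cKO replicate 1 (0.25) or Dor cKO replicate 2 (0.27).

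Of 15 tested inhibitor genes, 8 rose and 1 fell. The secreted Wnt binder Wif1 went from 28.9 and 27.0 CPM to 47.9 and 47.4 CPM and rose by 0.77 (SE 0.07, edgeR adjusted p = 8.24e-10), Draxin, a guidance factor that binds Lrp6, rose by 0.69 (SE 0.07) and Igfbp4 by 0.50 (SE 0.03). The gene that fell was Sostdc1, which stayed under 1 CPM in every library, with 16, 15, 4 and 5 counts, and lost its call with any 1 library left out (values from -2.06 to -1.65). Downstream of the receptors, the cytoplasmic pathway had 6 of 21 genes higher and 1 lower with a median of 0.02: Dact2, Dact1 and the Dishevelled gene Dvl2 rose by 0.46 (SE 0.14), 0.40 (SE 0.06) and 0.35 (SE 0.08), and the kinase gene Csnk1g1 fell by 0.30 (SE 0.09). The Dact2 call was lost without Dor cKO replicate 1 (0.40), and that of Csnk1g1 with DESeq2 (adjusted p = 0.0527) and also without Dor WT replicate 2 (-0.22) or Dor cKO replicate 1 (-0.29). Of 13 Tcf factors and cofactors, 4 rose and 1 fell. Tcf7l2, which is active in newly formed oligodendrocytes, had 35.6 and 32.9 CPM in Dor WT against 27.4 and 28.2 CPM in Dor cKO and fell by 0.30 (SE 0.08, edgeR adjusted p = 0.00412), whereas Tcf7l1 rose by 0.21 (SE 0.07), Bcl9l by 0.19 (SE 0.05) and Tle3 by 0.16 (SE 0.05). These 3 rises were small and lost their call without Dor cKO replicate 2 (0.20, 0.14 and 0.13), those of Tcf7l1 and Bcl9l also without Dor WT replicate 2 (0.19 and 0.16), and that of Tcf7l1 without Dor cKO replicate 1 (0.23).

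Of 17 tested canonical target genes, some of which stand on the other lists too, 9 rose and 1 fell, with a median of 0.29. Axin2, a feedback target singled out for its role after its value was seen, had 47.2 and 43.7 CPM in Dor WT against 56.2 and 56.9 CPM in Dor cKO and rose by 0.32 (SE 0.06, edgeR adjusted p = 0.000224). Sp5 rose by 0.58 (SE 0.21), a call lost with DESeq2 (adjusted p = 0.128), and Myc fell by 0.26 (SE 0.09), also lost with DESeq2 (adjusted p = 0.114). Both calls were lost without Dor WT replicate 2 (0.47 for Sp5 and -0.14 for Myc), Dor cKO replicate 1 (0.57 and -0.22) or Dor cKO replicate 2 (0.60 and -0.31). Of 17 planar cell polarity genes, 7 rose and 2 fell, with a median of 0.01. Prickle1, a core polarity gene, went from 75.2 and 69.7 CPM to 48.9 and 47.8 CPM and fell by 0.58 (SE 0.06, edgeR adjusted p = 4.55e-09), and the formin gene Daam1 fell by 0.24 (SE 0.04). The atypical cadherin genes Celsr1 and Fat4 rose by 0.40 (SE 0.07) and 0.36 (SE 0.04), and Daam2, a formin gene that also acts in the canonical pathway of oligodendrocyte precursors, rose by 0.34 (SE 0.04).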

How the data were processed

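RNA of mouse optic nerves was sequenced as stranded poly(A) libraries, per the labels' protocols, 2 libraries for each genotype. For the reads, RSEM 1.3.1, STAR 2.7.9a, Trimmomatic 0.36 and GRCm38 stand in the submitters' processing notes. The annotation release and the use of strand in counting are not given in the sources used here. Each deposited RSEM table gives, per the file headers, an expected count per gene, TPM and FPKM (the latter was not used), a length weighted by transcript abundance and a posterior SD of the count. Symbols and positions came from GENCODE M21, which matched 55141 of 55401 genes. The other 260 held 0.00297% of counts.

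Expected counts were rounded, genes were kept with filterByExpr (minimum count 10, minimum total 15), libraries were scaled by TMM, and Dor cKO was tested against Dor WT with edgeR 4.0.16 (robust quasi-likelihood test) in R 4.3.3, with Benjamini-Hochberg adjustment over 16751 genes and a threshold of 0.05. CPM uses TMM-scaled library sizes, and the SE is the log2 fold change divided by the root of F. The common biological coefficient of variation was 0.0348. Depth was 17263830 to 21595832 counts, and the counts of each pair of replicates differed by more than counting noise (chi-square per degree of freedom 2.69 and 2.24). The fit was tested on simulated data. Alternatives were DESeq2 1.42.0, RLE and total count scaling, no low-count filter or 1 CPM in 2 libraries, limma 3.58.1 on log2(TPM + 1), a coefficient of variation set at 0.1, removal of a trend on length and GC content, a replicate block, and each library left out.

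The Frizzled genes and all gene lists were chosen with earlier results of these data known. All Frizzled genes and Trp53inp2 are named. On each Wnt list the named genes are the called members at 1 CPM or more, up to 3 with the largest fall and 3 with the largest rise. Genes like Fzd5 are the 5 nearest by distance among those with a mean CPM within a factor of 2. The rule also takes the 2 most abundant genes of each marker list, which are given only as list sums. Neighbours of Fzd5, Sostdc1 and single marker genes were named after their values were seen.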

Additional observations from a re-analysis of the deposited data

How the results depend on the processing

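Under the alternatives the value of Fzd5 ran from -1.68 to -1.50, which is no independent support since Fzd5 was chosen on this contrast. The number of Frizzled genes called lower was 1 in place of 2 with DESeq2, with limma on log2(TPM + 1), with the coefficient of variation set at 0.1 and after removal of the length and GC trend, and 1 to 1 with each library left out, when Fzd3 lost its call. The number called higher was 4 in place of 6 with limma and with the set coefficient of variation, where Fzd6 and Fzd10 lost their call, 7 with the trend removed, where Fzd4 gained one, and 5 to 7 with each library left out: Fzd10 lost its call without Dor WT replicate 2 or Dor cKO replicate 1, and Fzd4 gained one without Dor cKO replicate 2. The trend removal turned Fzd3 to 0.0711, and the cause was not tested. Over all tested genes, 2399 higher and 2248 lower became 666 and 722 with limma and 703 and 891 with the set coefficient of variation, which assumes a larger spread, and 1782 to 2184 and 1670 to 2073 with each library left out. Total count scaling gave 2162 higher and 2528 lower, so that the share of calls that were higher moved from 51.6% to 46%. DESeq2 gave 1812 and 1657. On the Wnt lists, 55 higher and 9 lower became 16 and 1 with limma, 12 and 5 with the set coefficient of variation and 5 lower with DESeq2, and 45 to 52 and 5 to 7 with each library left out. The replicate numbers did not pair the libraries (correlation of deviations -0.02), and a replicate block gave 6 and 2 Frizzled, 57 and 9 Wnt pathway and 2561 and 2409 genes in all. The value of Fzd8, 0.0174, was -0.0027 with total count scaling and -0.0100 without Dor WT replicate 1. Other values that changed sign were those of Mettl21a (-0.3627) and Plekhm3 (0.324) with limma and of Plekhm3 with the trend removed (0.0005). With 2 libraries a group, the spread is known poorly.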
